A study of Mus musculus with 10 samples.

Results

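The clustered protocadherins were taken as every gene whose symbol names a member of the alpha, beta or gamma protocadherin cluster, which gave 58 of the 55487 genes in the table. The alpha cluster had 14 members, the beta cluster 22 and the gamma cluster 22. These genes encode cadherin-type adhesion proteins that line up side by side in 3 tandem arrays. In mouse neurons each variable first exon has its own promoter, the alternate promoters are chosen largely at random in each cell with the help of CTCF and cohesin, and the resulting set of proteins gives a neuron a surface identity that neighbouring processes recognise by like-to-like binding. In the alpha and gamma clusters the variable exon is spliced to constant exons that encode a shared intracellular tail, whereas a beta member has no constant exons. The 5 C-type genes at the ends of the alpha and gamma clusters (Pcdhac1, Pcdhac2, Pcdhgc3, Pcdhgc4 and Pcdhgc5) are known in mouse for being used more uniformly, by neuron type and age, than the alternate genes. Gamma members are also made by mouse astrocytes.

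The study asked how TDP-43, the RNA-binding protein encoded by Tardbp, acts in neurons in relation to myelin. All mice carried a CamKII-Cre transgene, whose promoter is active in excitatory forebrain neurons. The control group NC-GFP (n = 3) had CamKIIcre/- without floxed alleles and received the Cre-dependent virus AAV-FLEX-GFP. The group TDP-43cKO-GFP (cKO-GFP below, n = 3) had the genotype TDP-43flox/flox::CamKIIcre/- and received the same virus, and TDP-43cKO-TDP-43mNLS (cKO-mNLS below, n = 4) had that genotype and received AAV-FLEX-TDP-43mNLS-GFP. Virus was placed in the dentate gyrus, and after 1 month GFP-positive cells were sorted. Each library came from a pool of 3 to 4 animals, so p-values measure the spread between pools. The labels give neither the animals' age nor the sort gates, and they name no batch.

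Library totals lay between 17164162 and 29204279 estimated counts, of which the members held 0.0276% to 0.0747%. Between 50 and 57 of the 58 members were above 0 in a library. Tardbp ranged over 121 to 143 CPM (counts per 1000000 counts) among NC-GFP libraries, 108 to 122 CPM among cKO-GFP and 185 to 337 CPM among cKO-mNLS. The test described below did not separate cKO-GFP from the controls for Tardbp (log2 fold change -0.16, SE 0.205, edgeR adjusted p = 0.745). The labels do not say which exons the floxed allele loses or whether viral RNA counts toward the gene, so Tardbp does not check the genotypes. The label of the cells was set against 8 neuron markers (Snap25, Syt1, Rbfox3, Slc17a7, Syn1, Stmn2, Nefl and Map2). Their summed level was 161 to 166 CPM among NC-GFP libraries, 96.4 to 161 CPM among cKO-GFP and 466 to 1321 CPM among cKO-mNLS, and Slc17a7 was at 0 in 1 NC-GFP library. Map2 held most of this sum in the groups given GFP alone, at 134 to 136 CPM for NC-GFP and 61.7 to 93.8 CPM for cKO-GFP. The other 7 markers together reached 25.5 to 30.1 CPM for NC-GFP, 27.2 to 67.5 CPM for cKO-GFP and 314 to 1011 CPM for cKO-mNLS. In the same libraries 6 oligodendrocyte markers summed to 4274 to 14913 CPM and 6 microglia markers to 1562 to 5930 CPM. The libraries thus held RNA of other cell types beside neurons, and in such bulk samples fewer cells of a type and less RNA per cell cannot be told apart.

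All members lie on the plus strand of chromosome 18 (GRCm38/mm10). The alpha members span 36930184 to 37187661, the beta members 37264938 to 37524479 and the gamma members 37661793 to 37841873. Coordinates of all 58 equalled those of GENCODE M21. The symbol Pcdha11 named 2 entries of the table, ENSMUSG00000007440 (37005203 to 37187657) and ENSMUSG00000102206 (37010712 to 37187657), which are kept apart here by identifier. RefSeq (GRCm38.p6) places Pcdha10 at 37005320 and Pcdha11 at 37010858. Pcdhgb8 is typed as a polymorphic pseudogene in the annotation.

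How far a read can name its member differed between the clusters. Exonic bases shared with another member had a median of 53.45% over the alpha members and 44.7% over the gamma members, because of the constant exons, and 0% over the beta members. Estimated counts that are not whole numbers arise when a read is divided among genes. Among counts above 0 their share was 97.7% in the gamma cluster, 92.6% in the alpha cluster and 5.7% in the beta cluster, against 13.4% over all genes. Values of single alpha and gamma members therefore depend on how the authors' software divided reads among them. The cluster sums do not depend on how reads are divided within a cluster.

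Compared per length, as mean TPM (transcripts per 1000000 transcripts) over the 10 libraries, the gamma cluster was the most abundant. Gamma members held the first 21 places among the 58. Pcdhgc3, which in mouse promotes branching of cortical dendrites, led with a mean of 10.7 TPM. It was followed by Pcdhgc5 at 4.97 TPM, by Pcdhga11 at 3.74 TPM and by Pcdhgb2 at 2.88 TPM. The highest beta members were Pcdhb17 at 0.71 TPM, Pcdhb16 at 0.650 TPM and Pcdhb18 at 0.623 TPM. The highest alpha members were Pcdhac2 at 0.352 TPM, Pcdha11 (ENSMUSG00000102206) at 0.273 TPM and Pcdha9 at 0.230 TPM. The lowest of all was Pcdhb1, with 0.0034 TPM. Some of these places came from cKO-mNLS. Pcdhgc5 ranked 16 with 1.54 TPM over NC-GFP and 18 with 0.63 TPM over cKO-GFP, against 2 with 10.8 TPM over cKO-mNLS. Among the 14 alpha members Pcdhac2 ranked 5, 7 and 1 in these groups, and Pcdha9 led in NC-GFP with 0.203 TPM and in cKO-GFP with 0.14 TPM. Pcdhgc3 and Pcdhga11 ranked 1 and 2 in both groups given GFP alone, and 1 and 3 in cKO-mNLS. Over the 10 libraries together, members nearer the 3' end of a cluster tended to have the higher mean TPM. Spearman's rho between order and mean TPM was 0.77 over 21 beta members, 0.60 over 12 alpha members and 0.49 over 22 gamma members. No rho was taken by group, and the alpha order differed between groups. Pcdha12, Pcdhac1 and Pcdhac2, the last alpha members at the 3' end, ranked 10, 11 and 5 among the 14 in NC-GFP. In cKO-mNLS they ranked 3, 11 and 1. The rho values are descriptions across genes of the same libraries, and the alpha and gamma members also share exons.

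The summed level of the alpha cluster was several times higher in cKO-mNLS than in the groups given GFP alone. It was 6.64, 8.77 and 8.64 CPM in NC-GFP, 6.57, 13.0 and 6.50 CPM in cKO-GFP, and 26.7, 55.1, 36.7 and 22.5 CPM in cKO-mNLS. The lowest cKO-mNLS library was above the highest of the other 6, while NC-GFP and cKO-GFP overlapped. The alpha sum averaged 8.02 ± 1.19 CPM (SD, n = 3) for NC-GFP, 8.68 ± 3.71 CPM (SD, n = 3) for cKO-GFP and 35.3 ± 14.5 CPM (SD, n = 4) for cKO-mNLS. The difference on the log2 scale was 2.02 between cKO-mNLS and cKO-GFP and 2.06 between cKO-mNLS and NC-GFP. A sum over chosen members was given no p-value.

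The beta and gamma clusters had another pattern, with cKO-GFP below both other groups. The beta sum was 65.9, 63.4 and 72.6 CPM in NC-GFP, 51.0, 54.4 and 33.2 CPM in cKO-GFP, and 76.6, 84.8, 95.1 and 61.7 CPM in cKO-mNLS. The gamma sum was 482, 566 and 530 CPM in NC-GFP, 301, 402 and 262 CPM in cKO-GFP, and 547, 474, 606 and 415 CPM in cKO-mNLS. In both clusters every cKO-GFP library was below every library of the other groups, and cKO-mNLS overlapped NC-GFP. The gamma sum averaged 526 ± 42.4 CPM (SD, n = 3) for NC-GFP, 322 ± 71.8 CPM (SD, n = 3) for cKO-GFP and 511 ± 83.3 CPM (SD, n = 4) for cKO-mNLS, and the beta sum 67.3 ± 4.80, 46.2 ± 11.3 and 79.6 ± 14.1 CPM for the same groups. The log2 difference between cKO-GFP and NC-GFP was -0.73 for the gamma sum and -0.57 for the beta sum. Between cKO-mNLS and cKO-GFP it was 0.67 for gamma and 0.80 for beta, and summing the deposited TPM in place of counts gave 1.07 for gamma.

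**Figure D1:**
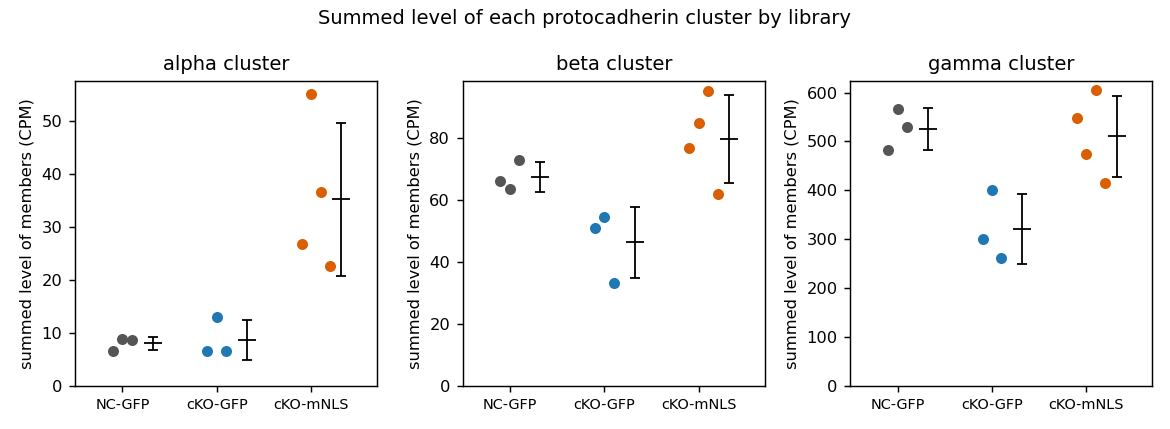
Summed level of each cluster in CPM (vertical axes, from 0) for the 3 groups (horizontal axes; cKO-GFP is TDP-43cKO-GFP and cKO-mNLS is TDP-43cKO-TDP-43mNLS). Points are libraries and bars are mean ± SD; the 4 cKO-mNLS libraries sit between 22.5 and 55.1 CPM in the alpha cluster, above all others, whereas in the beta and gamma clusters the 3 cKO-GFP libraries sit lowest.

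Among the members' own counts, the alpha cluster held 1.20% to 1.41% of NC-GFP, 1.83% to 2.77% of cKO-GFP and 4.11% to 8.97% of cKO-mNLS. The gamma cluster held 86.7% to 88.7%, 84.0% to 86.8% and 77.2% to 84.1% in the same order. The alpha ranges did not overlap between any pair of groups. The beta share, 9.93% to 14.2% over all libraries, overlapped throughout.

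Single members were tested with edgeR's quasi-likelihood test, with Benjamini-Hochberg adjustment over 20379 genes, and called at an adjusted p under 0.05. Of the 58 members, 55 passed the low-count filter. Pcdha1, Pcdha3 and Pcdhb1 did not, and Pcdhb1 had 5 counts, all in 1 library. A further 5 members (Pcdha4, Pcdha8, Pcdha11 ENSMUSG00000007440, Pcdhac1 and Pcdhb13) would not have passed without the cKO-mNLS libraries, so they were admitted through that group. The medians of the comparisons with cKO-mNLS are therefore given over the other 50 members (8 alpha, 20 beta and 22 gamma), a choice made after seeing the data. The 3 comparisons share groups, so their values are not independent of each other.

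The comparison of cKO-GFP with NC-GFP addresses the floxed TDP-43 alleles, and its fold changes were mostly negative but did not pass the threshold one by one. No member was called by edgeR, while 0.53% of all tested genes were called higher and 1.1% lower (such shares of all genes are given below as background). At an unadjusted p under 0.05, 19 of the 58 members, or 32.8%, were lower (background 7.08%) and 2, or 3.45%, were higher (background 9.73%). Of the 19, 14 were gamma members, 4 were beta members and 1 was an alpha member. In 19 members, or 32.8%, every cKO-GFP library was below every NC-GFP library (background 11.4%), and in 2 members, or 3.45%, above (background 13.6%). The median log2 fold change was -0.67 over the gamma members, -0.45 over the tested beta members and -0.32 over the tested alpha members, against 0.04 over all genes. Other tests made calls among the 58 members, all lower. DESeq2 called 7 of 58 (background 3.93% lower and 3.4% higher). With quality weights limma voom called 9 of 58 (background 4.04% lower and 3.38% higher), and edgeR without the low-count filter called 2 of 58 (background 0.898% lower and 0.472% higher). Without cKO-GFP replicate 2 edgeR itself called 7 gamma members, while leaving out any other library of these 2 groups gave 0. Calls over all genes moved the same way, from 333 of 20379 to 755 of 21369 without cKO-GFP replicate 2. They were 61 to 144 in the fits that gave 0 members. Removing cKO-mNLS replicate 1, 2 or 4 from the shared fit gave 1 call, Pcdhga12, beside 409, 407 and 382 calls over all genes.

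In the gamma cluster the cKO-GFP fold changes differed along the array. The first 4 members from the 5' end (Pcdhga1, Pcdhga2, Pcdhga3 and Pcdhgb1) had log2 fold changes of -0.39 to 0.06, with a median of -0.12. The next 15, from Pcdhga4 to Pcdhga12, had values of -1.39 to -0.38, with a median of -0.70. The 3 C-type members had values of -1.15 to -0.69. Over the 22 members Spearman's rho between order and log2 fold change was -0.72, and the split into 4 and 15 was chosen after the values were seen. These members share constant exons and libraries, so the points are not independent. In the other comparisons the same rho was 0.17 and -0.24.

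The comparison of cKO-mNLS with cKO-GFP addresses TDP-43mNLS, and most members had the higher level in cKO-mNLS. edgeR called 8 of the 58 members higher, or 13.8%, and 0 lower, against a background of 8.93% higher and 7.13% lower over all genes. The called members were Pcdhac2 and Pcdha11 (ENSMUSG00000102206) in the alpha cluster, Pcdhb4, Pcdhb14 and Pcdhb16 in the beta cluster, and Pcdhga4, Pcdhga12 and Pcdhgc5 in the gamma cluster. At an unadjusted p under 0.05, 22 members were higher, or 37.9% (background 15.5%), and 0 were lower (background 14.2%). Of the 50 members that passed the filter without cKO-mNLS, 48 had a positive fold change, 8 were called and 19 were higher at an unadjusted p under 0.05. Their median log2 fold change was 0.77 against -0.01 over all genes, with 1.93 in the alpha cluster, 0.80 in the beta cluster and 0.62 in the gamma cluster. In 15 members, or 25.9%, the cKO-mNLS libraries were all above the cKO-GFP libraries (background 13.3%), and in 0 members all below (background 12.4%). Of the 15, 13 are among the 50 members. DESeq2 called 18 of the 58 members higher (background 13.5%) and limma voom 13 (background 10.7%), and neither called one lower (background 9.26% and 8.15%). Pcdha8 and Pcdhb13 among the DESeq2 calls, and Pcdha11 (ENSMUSG00000007440) among the voom calls, passed the filter only through cKO-mNLS. The edgeR count was 4 without cKO-GFP replicate 1 or 3, 15 without cKO-GFP replicate 2, 5 without cKO-mNLS replicate 3 and 13 without cKO-mNLS replicate 4. Calls over all genes, 3273 of 20379 with every library, changed too. They were 1625 of 21370 and 1178 of 21318 without cKO-GFP replicate 1 and 3, and 3629 of 21369 without cKO-GFP replicate 2. Without cKO-mNLS replicate 3 and 4 they were 2514 of 20094 and 3473 of 20113.

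Against the control group NC-GFP, the members that rose in cKO-mNLS were Pcdha8, Pcdha12, Pcdhac2 and Pcdhgc5. These 4 were 6.9% of the members, below the background of 8.23%, and edgeR called 0 lower (background 3.25%). At an unadjusted p under 0.05, 12 members, or 20.7%, were higher (background 14.8%) and 0 were lower (background 10.3%). DESeq2 called 9 of the 58 higher (background 12.1%) and 0 lower (background 5.44%), and limma voom called 5 higher (background 9.53%) and 0 lower (background 4.44%). Of the DESeq2 calls, Pcdha8, Pcdha11 (ENSMUSG00000007440), Pcdhac1 and Pcdhb13 passed the filter only through cKO-mNLS. The same holds for Pcdha8 and Pcdha11 (ENSMUSG00000007440) among the voom calls. Because Pcdha8 passed the low-count filter through the cKO-mNLS libraries, the group in which it was high, 3 of the 4 edgeR calls are among the 50 members that passed without them. Over these 50, 8 members were higher at an unadjusted p under 0.05, and the median log2 fold change was 1.65 for the alpha cluster, 0.20 for the beta cluster and -0.11 for the gamma cluster, against -0.02 over all genes. In 13 members, or 22.4%, the cKO-mNLS libraries were all above NC-GFP (background 13.9%), and in 2, or 3.45%, all below (background 10.8%). Of the 13, 8 are among the 50 members. The edgeR count was 1 without NC-GFP replicate 3 and 2 without cKO-mNLS replicate 2. Calls over all genes were 1217 of 21361 and 1714 of 20009 in these fits, against 2341 of 20379 with every library.

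**Figure D2:**
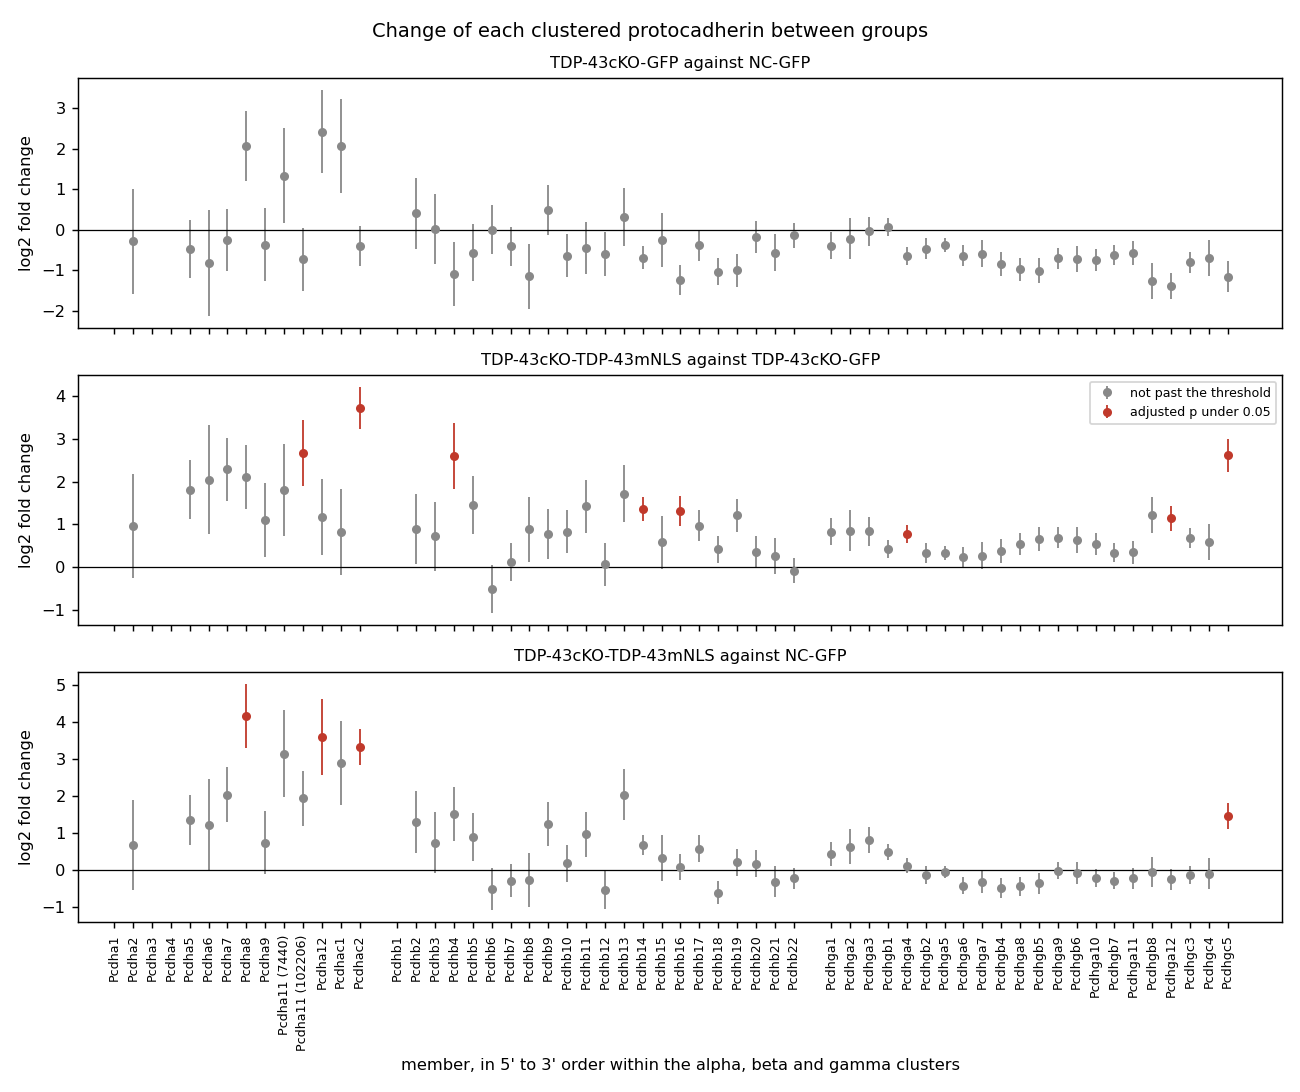
Log2 fold change ± SE from edgeR (vertical axes) for each tested member in 5' to 3' order (horizontal axis), in 1 panel for each comparison; red points passed an adjusted p of 0.05. Pcdha4, at 0 in every cKO-GFP library, is left out of the panels, and the last digits of their identifiers mark the 2 Pcdha11 entries. In the upper panel no point is red and the gamma values lie mostly below 0; Pcdhac2 and Pcdhgc5 are red in both cKO-mNLS panels.

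Pcdhac2, the C-type gene at the 3' end of the alpha cluster (37143503 to 37187657), is the member that serotonergic axons of mice need for even spacing. It stood at 0.458, 1.01 and 1.49 CPM in NC-GFP, 0.524, 0.794 and 0.871 CPM in cKO-GFP, and 7.53, 12.8, 12.7 and 6.10 CPM in cKO-mNLS. All 4 cKO-mNLS libraries were above the other 6. The rise was 3.73 on the log2 scale against cKO-GFP (SE 0.493, edgeR adjusted p = 0.00182) and 3.33 against NC-GFP (SE 0.483, edgeR adjusted p = 0.00152). Both calls held with each library of the compared groups left out in turn. The fold change between cKO-GFP and NC-GFP was -0.40 (SE 0.486, edgeR adjusted p = 0.732).

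Pcdhac2 also made up more of its cluster. Its share of alpha counts was 11.9 ± 5.20% (SD, n = 3) for NC-GFP, 9.17 ± 3.78% (SD, n = 3) for cKO-GFP and 28.2 ± 4.70% (SD, n = 4) for cKO-mNLS, and the lowest cKO-mNLS library, at 23.2%, was above the highest of the others, at 17.3%. An exact two-sided permutation test gave p = 0.0571 in both comparisons with cKO-mNLS, the smallest that 4 against 3 libraries allow, and 0.128 after adjustment over 9 tests of shares. These tests covered Pcdhac2, Pcdhgc3 and Pcdhgc5 in each comparison, and the shares of Pcdhac1 and Pcdhgc4 were not tested.

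Pcdhac1, the other alpha C-type gene, was low. It stood at 0.155, 0.346 and 0 CPM in NC-GFP, 1.12, 1.10 and 0.0461 CPM in cKO-GFP, and 1.70, 2.10, 0.760 and 0.863 CPM in cKO-mNLS. The cKO-mNLS libraries were above NC-GFP and overlapped cKO-GFP. The log2 fold change against NC-GFP was 2.90 (SE 1.13, edgeR adjusted p = 0.131), which did not pass.

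Pcdhgc5 (37819513 to 37841873), a C-type gamma gene that appears late in mouse brain development, stood at 20.1, 16.5 and 13.0 CPM in NC-GFP, 5.24, 9.77 and 7.34 CPM in cKO-GFP, and 39.4, 64.0, 58.4 and 20.9 CPM in cKO-mNLS. The 3 groups did not overlap, and cKO-mNLS replicate 4 lay close to the highest NC-GFP library. The rise against cKO-GFP was 2.62 on the log2 scale (SE 0.379, edgeR adjusted p = 0.00221) and held with each library left out in turn. The rise against NC-GFP was 1.46 (SE 0.358, edgeR adjusted p = 0.0220). Leaving out NC-GFP replicate 2, NC-GFP replicate 3 or cKO-mNLS replicate 2 ended that call (edgeR adjusted p = 0.0828, 0.104 and 0.0551). Between cKO-GFP and NC-GFP the log2 fold change was -1.15 (SE 0.377, edgeR adjusted p = 0.153). Its share of gamma counts was 3.18 ± 0.888% (SD, n = 3) for NC-GFP, 2.32 ± 0.536% (SD, n = 3) for cKO-GFP and 8.84 ± 3.62% (SD, n = 4) for cKO-mNLS, and the exact two-sided permutation p against either other group was again the smallest possible, 0.0571.

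The length that the deposited TPM imply for Pcdhgc5 was not the same in every library. Taken as counts over TPM relative to Pcdhgb7 in the same library, it was 1.08, 1.13 and 1.05 for the NC-GFP libraries, 1.03, 1.09 and 1.05 for cKO-GFP, and 0.374, 0.401, 0.419 and 1.05 for cKO-mNLS. Replicates 1 to 3 of cKO-mNLS thus stood apart from the other 7 libraries. GENCODE M21 lists 4 transcripts of the gene. The full coding transcript has 4741 bases with a first exon of 2622 bases, another of 5777 bases retains an intron, and 2 short coding transcripts have 444 and 593 bases with a first exon of 147 bases. The deposited table gives no value per transcript. Of 56 members with at least 10 counts in more than 1 library, 4 had implied lengths whose highest value was over 1.5 times the lowest (Pcdhb8, Pcdhgc5, Pcdha11 ENSMUSG00000102206 and Pcdha4), and the median ratio was 1.02. The TPM of Pcdhgc5 was 13.0, 15.2, 12.6 and 2.32 in cKO-mNLS against 1.10 to 2.20 in NC-GFP, a wider gap than in counts, and the length differences were seen only after these values.

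Gm38182, a processed transcript that overlaps Pcdhgc5 on the same strand, was checked because its reads cannot all be told apart from those of Pcdhgc5. It stood at 0.71 to 4.83 CPM for NC-GFP, 5.11 to 11.0 CPM for cKO-GFP and 2.29 to 19.9 CPM for cKO-mNLS. The sum of both genes was 16.2 to 21.3 CPM for NC-GFP, 13.8 to 18.3 CPM for cKO-GFP and 27.3 to 66.5 CPM for cKO-mNLS. The summed level in cKO-mNLS stayed above both other groups, while NC-GFP and cKO-GFP, apart for Pcdhgc5 alone, overlapped in the sum.

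Pcdhgc3, the most abundant member, stood at 91.7, 121 and 111 CPM in NC-GFP, 44.7, 73.1 and 67.9 CPM in cKO-GFP, and 138, 71.7, 109 and 77.7 CPM in cKO-mNLS. Every cKO-GFP library was below every NC-GFP library, and cKO-mNLS overlapped both. The log2 fold change between cKO-GFP and NC-GFP was -0.80 (SE 0.257, edgeR adjusted p = 0.147). Its share of gamma counts, 20.5 ± 1.24%, 19.6 ± 5.66% and 19.3 ± 4.26% in the 3 groups, differed by less than the spread between libraries (exact two-sided permutation p from 0.686 to 0.971).

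Pcdhgc4, the member that mouse neurons need for survival, stood at 7.71, 4.89 and 9.87 CPM in NC-GFP, 2.83, 8.47 and 2.65 CPM in cKO-GFP, and 8.17, 7.98, 5.83 and 6.07 CPM in cKO-mNLS. The groups overlapped in every comparison. The lowest edgeR adjusted p over the 3 comparisons was 0.389. Among the 5 C-type genes the cKO-mNLS level was thus above both other groups for Pcdhac2 and Pcdhgc5.

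**Figure D3:**
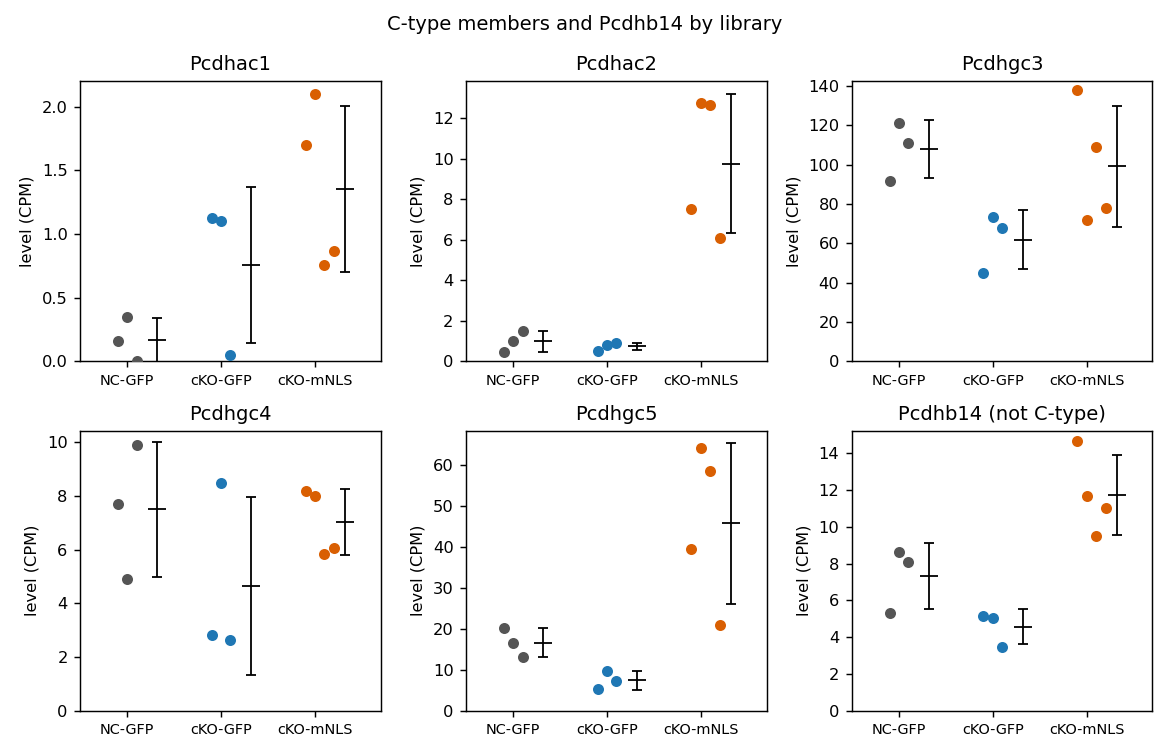
Level in CPM (vertical axes, from 0) of the 5 C-type members and of Pcdhb14 in the 3 groups (horizontal axes). Points are libraries and bars are mean ± SD; Pcdhac2 reaches 6.10 to 12.8 CPM in cKO-mNLS and at most 1.49 CPM elsewhere, while Pcdhgc3 and Pcdhgc4 overlap between cKO-mNLS and both other groups.

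**Figure D4:**
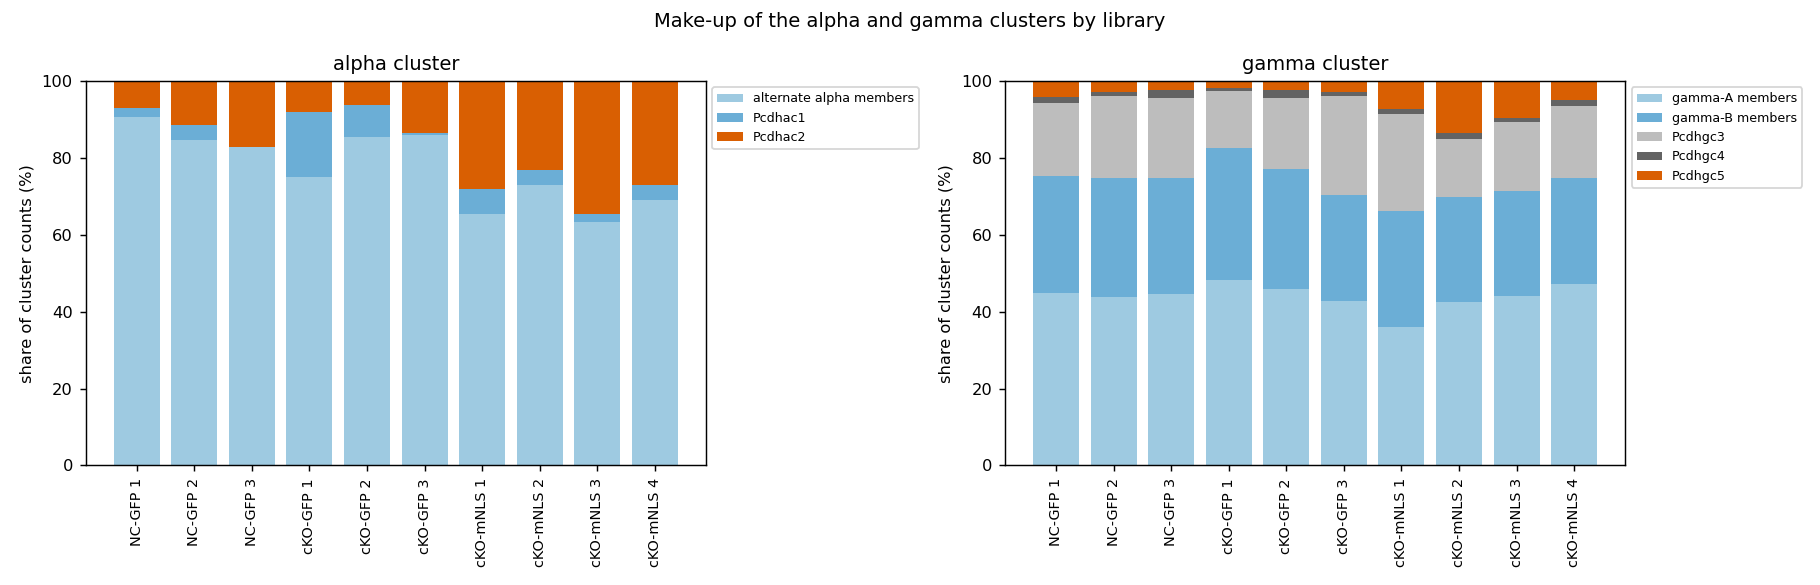
Share of cluster counts in percent (vertical axes) taken by each class of alpha (left) and gamma (right) members in each of the 10 libraries (horizontal axes). The Pcdhac2 segment is 23.2% or more in each cKO-mNLS library, and the Pcdhgc5 segment is 5.04% to 13.5% there, against at most 4.17% in the other libraries.

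Alternate alpha genes, the stochastically chosen members, were low and varied widely between libraries. Pcdha8 stood at 0.0489, 0.146 and 0.0700 CPM in NC-GFP, 0.529, 0.364 and 0.249 CPM in cKO-GFP, and 0.905, 3.21, 1.54 and 0.936 CPM in cKO-mNLS. The 3 groups did not overlap. The difference between cKO-mNLS and NC-GFP was 4.17 on the log2 scale (SE 0.868, edgeR adjusted p = 0.00935) for a gene that passed the filter through cKO-mNLS, and the call was lost without NC-GFP replicate 3 (edgeR adjusted p = 0.0507). Against cKO-GFP the value was 2.11 (SE 0.746, edgeR adjusted p = 0.0773).

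Pcdha12 stood at 0, 0.650 and 0.229 CPM in NC-GFP, 0.729, 2.17 and 1.97 CPM in cKO-GFP, and 1.76, 4.29, 7.50 and 1.06 CPM in cKO-mNLS. Both TDP-43cKO groups were above NC-GFP and overlapped each other. The rise from NC-GFP to cKO-mNLS was 3.60 on the log2 scale (SE 1.03, edgeR adjusted p = 0.0439). Leaving out NC-GFP replicate 1 or 3, or cKO-mNLS replicate 2 or 3, ended that call (edgeR adjusted p from 0.0813 to 0.156).

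Pcdha11 (ENSMUSG00000102206) stood at 1.21, 0.804 and 0.169 CPM in NC-GFP, 0.476, 0.678 and 0.158 CPM in cKO-GFP, and 2.06, 5.38, 1.65 and 2.34 CPM in cKO-mNLS. All cKO-mNLS libraries were above the rest. The rise against cKO-GFP was 2.67 on the log2 scale (SE 0.775, edgeR adjusted p = 0.0369), and it was lost without cKO-GFP replicate 1 (0.105), cKO-GFP replicate 3 (0.144) or cKO-mNLS replicate 2 (0.0967).

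Pcdha9 stood at 2.74, 1.52 and 1.99 CPM in NC-GFP, 1.02, 2.51 and 1.32 CPM in cKO-GFP, and 0.350, 8.52, 4.26 and 0.947 CPM in cKO-mNLS. The cKO-mNLS libraries held both the lowest and the highest value of the 10, and no comparison passed. Pcdha4 had 28.0 counts in NC-GFP replicate 2, 40.4, 20.7 and 59.4 counts in cKO-mNLS replicates 1, 2 and 4, and 0 in the other 6 libraries. It was not called in any comparison of the 10 libraries, and it was called against cKO-GFP without cKO-mNLS replicate 3. With counts pooled over each group and a floor of 3 counts for cKO-GFP, the ratio of cKO-mNLS to cKO-GFP was 30.8. The groups overlapped, since cKO-mNLS replicate 3 was also at 0 (edgeR adjusted p = 0.0787 with every library). Pcdha4 passed the filter only through cKO-mNLS, so the pooled ratio and the call without replicate 3 do not establish a group difference. Of its 50-base words 90.1% occur in another gene, so its counts are uncertain.

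Other table entries on the strand of the alpha cluster held 12.2% as many counts as the cluster itself, from 4.80% to 22.5% by library. In the beta and gamma clusters they held 1.18% and 2.67%. Adding them left the log2 difference of the alpha sum between cKO-mNLS and cKO-GFP at 2.00.

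Beta members have no constant exons, and their reads were seldom divided. Pcdhb14 (37447656 to 37456350) stood at 5.31, 8.62 and 8.08 CPM in NC-GFP, 5.17, 5.07 and 3.47 CPM in cKO-GFP, and 14.7, 11.7, 9.50 and 11.0 CPM in cKO-mNLS. The 3 groups did not overlap. The rise from cKO-GFP to cKO-mNLS was 1.36 on the log2 scale (SE 0.275, edgeR adjusted p = 0.00791) and held with each library of these groups left out in turn. The fold changes were -0.68 between cKO-GFP and NC-GFP (SE 0.286, edgeR adjusted p = 0.254) and 0.68 between cKO-mNLS and NC-GFP (SE 0.268, edgeR adjusted p = 0.136).

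Pcdhb16 stood at 7.85, 8.01 and 8.02 CPM in NC-GFP, 4.67, 2.83 and 2.64 CPM in cKO-GFP, and 7.65, 9.36, 12.3 and 4.40 CPM in cKO-mNLS. Every cKO-GFP library was below NC-GFP, and cKO-mNLS replicate 4 overlapped cKO-GFP. The rise from cKO-GFP to cKO-mNLS was 1.31 on the log2 scale (SE 0.359, edgeR adjusted p = 0.0293), and it was lost without cKO-GFP replicate 2 or 3 or cKO-mNLS replicate 2 or 3 (edgeR adjusted p from 0.0563 to 0.123).

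Pcdhb4 was rare, at 0.585, 0.421 and 0.395 CPM in NC-GFP, 0.141, 0.0798 and 0.433 CPM in cKO-GFP, and 0.834, 2.15, 1.25 and 1.14 CPM in cKO-mNLS. The cKO-mNLS libraries were above all others. The rise against cKO-GFP was 2.60 on the log2 scale (SE 0.768, edgeR adjusted p = 0.0397), and it was lost without cKO-GFP replicate 1 or 2 or cKO-mNLS replicate 2 or 3 (edgeR adjusted p from 0.0619 to 0.145).

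Pcdhb18 differed from these genes. It stood at 9.53, 8.27 and 9.21 CPM in NC-GFP, 6.36, 4.43 and 2.44 CPM in cKO-GFP, and 5.53, 5.29, 6.36 and 6.40 CPM in cKO-mNLS. Both TDP-43cKO groups were below NC-GFP in every library and overlapped each other, and no comparison passed in edgeR (lowest adjusted p = 0.150). Pcdhb17, the beta member of highest mean TPM, stood at 4.93, 4.90 and 7.57 CPM in NC-GFP, 4.85, 5.94 and 2.52 CPM in cKO-GFP, and 9.42, 7.35, 12.03 and 5.97 CPM in cKO-mNLS. The cKO-mNLS libraries were above cKO-GFP, by 0.97 on the log2 scale (SE 0.362, edgeR adjusted p = 0.0925), which did not pass.

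Among the alternate gamma genes, Pcdhga12 (37765580 to 37841873), the last before the C-type members, had the smallest p between cKO-GFP and NC-GFP of all members. It stood at 21.4, 27.4 and 25.8 CPM in NC-GFP, 10.6, 12.5 and 5.43 CPM in cKO-GFP, and 16.4, 26.8, 25.5 and 15.3 CPM in cKO-mNLS. Every cKO-GFP library was below the other 7. The log2 fold change between cKO-GFP and NC-GFP was -1.39 (SE 0.316), and the edgeR adjusted p of 0.0546 lay just outside the threshold. The rise from cKO-GFP to cKO-mNLS was 1.14 (SE 0.300, edgeR adjusted p = 0.0245), and it was lost without cKO-GFP replicate 1 or 3 or cKO-mNLS replicate 2 or 3 (edgeR adjusted p from 0.0534 to 0.0789).

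Pcdhga4 stood at 10.7, 12.3 and 13.3 CPM in NC-GFP, 7.64, 9.26 and 6.13 CPM in cKO-GFP, and 15.1, 10.9, 13.6 and 13.1 CPM in cKO-mNLS. The cKO-GFP libraries were the lowest 3. The rise from cKO-GFP to cKO-mNLS was 0.78 on the log2 scale (SE 0.213, edgeR adjusted p = 0.0294), and it was lost without cKO-GFP replicate 1 or 3 or cKO-mNLS replicate 1 or 3 (edgeR adjusted p from 0.0578 to 0.117). Pcdhga11 stood at 36.4, 48.6 and 45.3 CPM in NC-GFP, 28.7, 34.9 and 24.6 CPM in cKO-GFP, and 27.8, 21.6, 51.6 and 48.1 CPM in cKO-mNLS. Its cKO-GFP libraries were below NC-GFP, and cKO-mNLS spanned both groups.

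Markers of several cell types moved with the groups, and their part in the protocadherin differences was not tested. All 8 neuron markers rose in cKO-mNLS against both other groups (background 8.93% against cKO-GFP and 8.23% against NC-GFP). Of 7 astrocyte markers, 4 (Gja1, Gjb6, Slc1a2 and Slc1a3), or 57.1%, fell in cKO-GFP against NC-GFP (background 1.1%), the comparison in which the beta and gamma sums were lower. The 7 together reached 3447 to 3984 CPM among NC-GFP libraries, 1000 to 1623 CPM among cKO-GFP and 1664 to 3962 CPM among cKO-mNLS. Of 4 dentate granule neuron markers, 3 rose in cKO-mNLS against cKO-GFP (background 8.93%) and 2 against NC-GFP (background 8.23%). Their summed level was 226 to 265, 139 to 230 and 293 to 490 CPM in the 3 groups. This sum did not follow the typical marker. In cKO-GFP against NC-GFP the median log2 fold change of the 4 was 0.48, although the sum averaged 197 against 248 CPM. The median was 2.25 in cKO-mNLS against cKO-GFP and 3.16 against NC-GFP. Of 6 microglia markers, 4, or 66.7%, fell in cKO-mNLS against each other group (background 7.13% against cKO-GFP and 3.25% against NC-GFP). Oligodendrocyte precursor markers summed to 43.9 to 55.9, 141 to 171 and 98.5 to 141 CPM, and blood markers to 13.8 to 95.1, 51.1 to 377 and 0 to 4.45 CPM, with S100a8 and S100a9 at 0 in every cKO-mNLS library. Inhibitory neuron, oligodendrocyte and vascular markers had no called gene in edgeR in any comparison.

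Set against neuron markers, the beta and gamma clusters were lowest in cKO-mNLS, while the place of the alpha cluster depended on the markers used. Per 1000 CPM of neuron markers, the alpha cluster stood at 40.0 to 53.6 CPM for NC-GFP, 56.7 to 80.3 CPM for cKO-GFP and 41.7 to 48.4 CPM for cKO-mNLS. The cKO-mNLS ratios lay within the NC-GFP range. Without Map2 in the marker sum, an alternative chosen after seeing the data, the alpha ratio was 221 to 338 CPM for NC-GFP, 123 to 241 CPM for cKO-GFP and 54.5 to 71.8 CPM for cKO-mNLS, which was then lowest. Against Map2 alone it was 48.9 to 65.4, 95.1 to 138 and 130 to 177 CPM, with cKO-mNLS above NC-GFP. The gamma cluster stood at 2899 to 3452, 2291 to 3125 and 359 to 935 CPM per 1000, and the beta cluster at 386 to 451, 290 to 529 and 64.2 to 133. Both were lower in every cKO-mNLS library than in the other 6, also without Map2 and against Map2 alone. Pcdhac2 stood at 2.76 to 9.27, 4.92 to 7.60 and 9.65 to 15.8 CPM per 1000, with cKO-mNLS above the others, and Pcdhgc5 at 80.7 to 121, 54.4 to 64.0 and 45.0 to 73.0, with cKO-mNLS below NC-GFP and overlapping cKO-GFP. These orders also depended on Map2. Without it Pcdhac2 stood at 15.2 to 58.5, 11.8 to 19.3 and 12.6 to 22.8 CPM per 1000, where the groups overlapped, and Pcdhgc5 at 510 to 667, 139 to 193 and 63.3 to 105, where cKO-mNLS was below both other groups. Against Map2 alone Pcdhac2 stood at 3.37 to 11.0, 7.59 to 14.1 and 36.5 to 51.4, with cKO-mNLS above both other groups. Pcdhgc5 then stood at 95.9 to 148, 75.9 to 119 and 138 to 237, with cKO-mNLS above cKO-GFP and overlapping NC-GFP. These ratios were given no test.

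**Figure D5:**
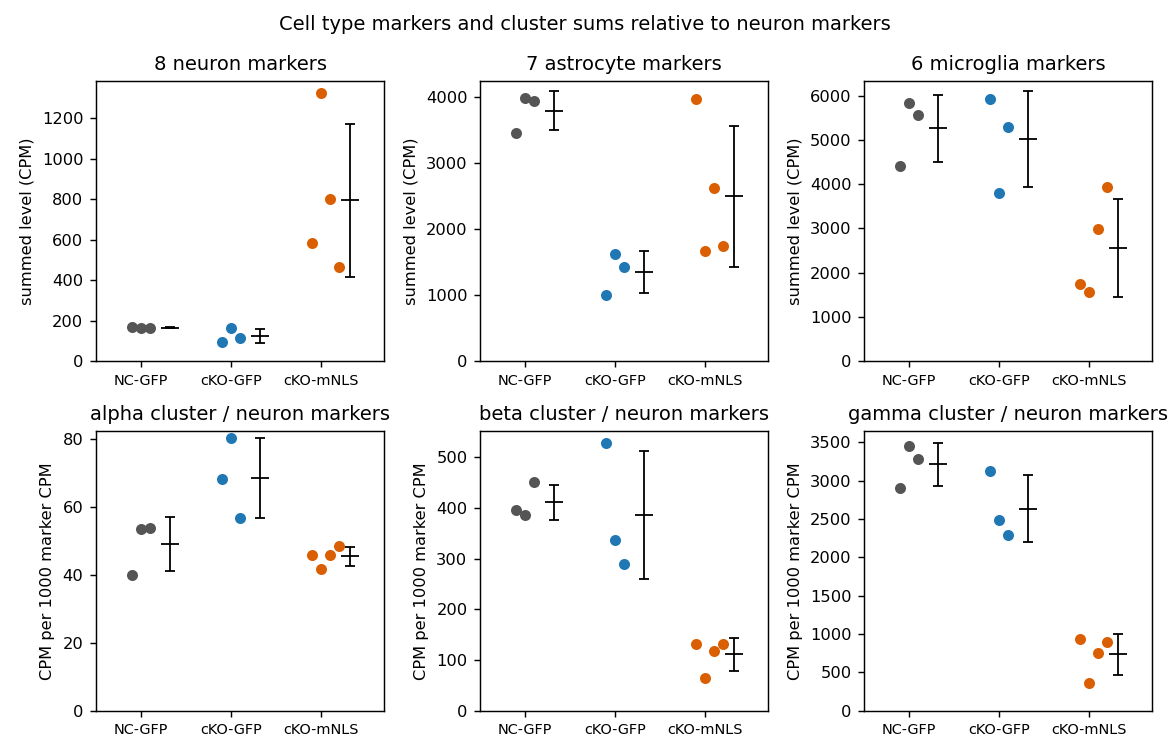
Summed CPM of neuron, astrocyte and microglia markers (upper row) and the alpha, beta and gamma sums per 1000 CPM of neuron markers (lower row) for the 3 groups (horizontal axes). Points are libraries and bars are mean ± SD, with vertical axes from 0; the alpha ratio of cKO-mNLS, 41.7 to 48.4, lies within the NC-GFP range but is lowest of the groups without Map2, while the beta and gamma ratios are lowest in cKO-mNLS either way.

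Genes that act on or with the clusters were followed in 5 lists of 53 genes. Of 11 cohesin and CTCF genes, whose products loop the chosen promoters to distant enhancers, edgeR called 0 in each comparison. At an unadjusted p under 0.05, 0 were lower in cKO-GFP against NC-GFP (background 7.08%) and none was higher (background 9.73%). In cKO-mNLS 3 were lower against cKO-GFP (background 14.2%) and 1 against NC-GFP (background 10.3%). None was higher in these 2 comparisons (background 15.5% and 14.8%). Of 8 genes that silence the clusters, Dnmt1, the maintenance DNA methyltransferase, rose in cKO-GFP against NC-GFP by 0.66 on the log2 scale (SE 0.141, edgeR adjusted p = 0.0433) and fell in cKO-mNLS against cKO-GFP by 0.56 (SE 0.130, edgeR adjusted p = 0.0144). Rest, a repressor of neuronal genes, fell in the second comparison by 0.69 (SE 0.183, edgeR adjusted p = 0.0257). These calls were 12.5% of the 8 genes in the first comparison (background 0.53% higher) and 25.0% in the second (background 7.13% lower). The Dnmt1 rise was lost in 5 of 6 fits that each left out 1 library, all but that without cKO-GFP replicate 2. Its fall was lost without cKO-GFP replicate 1 or 3, and the fall of Rest without these or cKO-mNLS replicate 2 or 3 (highest edgeR adjusted p = 0.222, 0.108 and 0.190).

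Of 15 intracellular partners, 4 rose (26.7%, background 8.93%) and 2 fell (13.3%, background 7.13%) in cKO-mNLS against cKO-GFP, and 6 rose (40.0%, background 8.23%) and 1 fell (6.67%, background 3.25%) against NC-GFP. Cyfip2, a subunit of the WAVE complex that drives actin branching, rose against NC-GFP by 2.10 on the log2 scale (SE 0.331, edgeR adjusted p = 0.00239). Marcks, an actin-binding protein of the cell membrane, fell by 0.76 against cKO-GFP (SE 0.181, edgeR adjusted p = 0.0156) and by 0.72 against NC-GFP (SE 0.181, edgeR adjusted p = 0.0253). The Marcks call was lost without cKO-GFP replicate 1 or 3 in the first comparison and in 6 of 7 fits in the second, the exception being without cKO-mNLS replicate 4 (highest edgeR adjusted p = 0.107 and 0.0969).

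Of 7 cleavage and surface partners, Psen2, a catalytic subunit of the gamma-secretase that cuts protocadherins, rose in cKO-GFP against NC-GFP by 1.11 (SE 0.240, edgeR adjusted p = 0.0444). Psen2 was the 1 call among the 7, or 14.3% (background 0.53% higher). That call was lost in 5 of 6 fits with 1 library left out, all but that without cKO-GFP replicate 2 (highest edgeR adjusted p = 0.230). In cKO-mNLS against cKO-GFP 2 of the 7 rose (28.6%, background 8.93%) and 3 fell (42.9%, background 7.13%). Nlgn1, the postsynaptic adhesion protein neuroligin 1, which mouse gamma protocadherins bind, rose by 1.49 (SE 0.223, edgeR adjusted p = 0.00241). Against NC-GFP 1 of the 7 rose (14.3%, background 8.23%) and 0 fell (background 3.25%).

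The 12 non-clustered protocadherins, which lie outside the arrays and have promoters of their own, had 1 lower call in cKO-GFP against NC-GFP (8.33%, background 1.1%). In cKO-mNLS they had 5 higher calls against cKO-GFP (41.7%, background 8.93%) and 3 higher calls against NC-GFP (25.0%, background 8.23%). Pcdh10 fell from 101 ± 0.374 (SD, n = 3) CPM in NC-GFP to 52.7 ± 10.1 (SD, n = 3) in cKO-GFP, by 0.93 on the log2 scale (SE 0.157, edgeR adjusted p = 0.0147). The call was lost without NC-GFP replicate 2 or 3 or cKO-GFP replicate 1 or 3 (highest edgeR adjusted p = 0.0794). Pcdh1 rose in cKO-mNLS against cKO-GFP by 1.57 (SE 0.242, edgeR adjusted p = 0.0026), and Pcdh8, an activity-regulated member, rose against NC-GFP by 3.01 (SE 0.609, edgeR adjusted p = 0.00793). Their median log2 fold change was -0.76, 0.77 and 0.10 in the 3 comparisons, beside 0.04, -0.01 and -0.02 over all genes.

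Over the 5 lists, edgeR called 2 higher and 1 lower in cKO-GFP against NC-GFP, 11 higher and 7 lower in cKO-mNLS against cKO-GFP, and 10 higher and 1 lower in cKO-mNLS against NC-GFP. These were 3.77% and 1.89% of the 53 genes in the first comparison (background 0.53% and 1.1%), 20.8% and 13.2% in the second (background 8.93% and 7.13%) and 18.9% and 1.89% in the third (background 8.23% and 3.25%). The first count of 3 became 1 without NC-GFP replicate 1 and 0 without NC-GFP replicate 2 or 3 or cKO-GFP replicate 1 or 3. The second, 18, became 10 without cKO-GFP replicate 1 and 8 without cKO-GFP replicate 3. The third, 11, became 5, 4 and 5 without NC-GFP replicates 1, 2 and 3 and 7 without cKO-mNLS replicate 2. Calls over all genes fell in each of these fits as well. They went from 333 to 61 to 144 in the first comparison and from 3273 to 1625 and 1178 in the second. In the third they went from 2341 to 1217 to 1714.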

How the data were processed

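RNA of sorted cells was read with a stranded SMART-Seq kit from 1 ng of RNA, per the labels' protocols. Per the file headers, the deposited table gives every gene a TPM value and an estimated count per library; the authors' estimated counts are not normalized, and their TPM are scaled for length and library total. Per the submitters' processing notes the authors used DRAGEN and GRCm38/mm10; the sources used here give no version, annotation or strand setting.

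Estimated counts were rounded to whole numbers and tested for all genes with edgeR 4.0.16 (R 4.3.3): group-wise low-count filter, TMM scaling, robust quasi-likelihood F test, 1 model of the 3 groups (7 residual degrees of freedom, common biological coefficient of variation 0.406), Benjamini-Hochberg adjustment. Members left untested by the filter are named in the text. CPM use TMM-scaled totals. Cluster sums add unrounded counts of all members, and their log2 differences are differences of group means of log2 CPM. Alternatives were DESeq2 1.42.0, limma voom (3.58.1) with quality weights, DESeq2 size factors, no filter, a stricter filter (6 or more libraries with a CPM of 1 or more, before TMM scaling), a fit of 2 groups, TPM sums, a replicate block and each library left out. The script was tested on simulated counts. Replicates differed far beyond sampling noise (chi-square per degree of freedom 23.5 to 126 over 12 pairs), so none was counted as a duplicate. The floor of 3 counts covers counting error only.

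The members, gene lists and markers were chosen with earlier results of these data known. Values in each library are given for the 5 C-type members, the 3 members of highest mean TPM in each cluster and all called members; of the 5 lists, called genes are named, at most 3 of smallest p per direction and comparison. A listed gene that this rule would name is not reported here.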

Additional observations from a re-analysis of the deposited data

How the results depend on the processing

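No called member changed sign under the alternatives run. Summing TPM moved the gamma difference from 0.67 to 1.07 (cKO-mNLS against cKO-GFP) and from -0.05 to 0.16 (cKO-mNLS against NC-GFP); it moved the alpha difference between cKO-GFP and NC-GFP from 0.05 to -0.21. The cause was not tested. With single libraries left out, the alpha sum differed by -0.28 to 0.21 between cKO-GFP and NC-GFP, 1.77 to 2.35 between cKO-mNLS and cKO-GFP, and 1.82 to 2.25 between cKO-mNLS and NC-GFP. The beta sum differed by -0.71 to -0.35, 0.58 to 0.93 and 0.13 to 0.34, and the gamma sum by -0.90 to -0.59, 0.54 to 0.85 and -0.14 to 0.04, in the same order. In cKO-GFP against NC-GFP, where edgeR called 0 members, the stricter filter gave 1, no filter 2, the fit of 2 groups 3, DESeq2 7 and voom 9, and leave-one-out fits 0 to 7. Over all genes the 333 calls became 379, 482, 754, 1376 and 1512 in the same order, and 61 to 755 in the leave-one-out fits. In cKO-mNLS against cKO-GFP the 8 became 4 in the fit of 2 groups, 13 with voom and 18 with DESeq2, and 4 to 15 with single libraries left out. Over all genes the 3273 calls became 2344, 3838 and 4622 in the same order, and 1178 to 3629 with single libraries left out. In cKO-mNLS against NC-GFP the 4 became 2 under the stricter filter and 9 with DESeq2, and 1 to 5 with single libraries left out. The stricter filter, set on CPM before TMM scaling, did not test Pcdhac2 or Pcdha8. Over all genes the 2341 calls became 1916 under that filter and 3567 with DESeq2, and 1217 to 2603 with single libraries left out. The pathway count of 3 in cKO-GFP against NC-GFP became 1 with DESeq2 size factors, where 308 of all genes were called. It became 6 in the fit of 2 groups, 8 with voom and 9 with DESeq2, and 0 to 4 with libraries left out. The 18 and the 11 of the other comparisons ranged over 8 to 20 and 4 to 15 with libraries left out. Under the other settings they ranged over 13 to 23 and 11 to 16.

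The replicate numbers shared by the groups are not stated to pair libraries, and same-numbered libraries did not deviate together (9 correlations of -0.145 to 0.059). With the replicate number as a block, the called members were 0, 7 and 5 in the 3 comparisons, and the pathway count in cKO-GFP against NC-GFP was 1. Calls over all 20379 genes were 176, 2648 and 1953 in that fit, against 333, 3273 and 2341 without the block. Low counts limit the alternate alpha genes and Pcdhb4 most.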
